A study of Homo sapiens with 45 samples.

Results

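The rows described here are the 44 rows named for ribosomal RNA in tables of 23045 rows, followed across 45 single cells. A row was taken where its name contains rRNA, as in c21_SSU-rRNA_Hsa. It was counted as SSU or LSU, the abbreviations of the small and large ribosomal subunits, where its name contains those letters. This gave 19 SSU and 25 LSU rows. Names begin with c and a number, x, y or m, in the manner of chromosomes. The files do not say what that prefix means, and give no coordinates or sequences. Rows are therefore called here by the first part of their names, such as c21_SSU.

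The cells belong to H1, a widely used line of human embryonic stem cells, and were at passage 40, grown on Matrigel in mTESR1 medium. Fixed cells carry the label DAPI+ and live cells DAPI-. Cells of both kinds were prepared by FRISCR, a method for sequencing RNA from fixed single cells, or by lysis in Triton X-100, a mild detergent, before Smart-seq2 cDNA synthesis and Nextera XT library preparation. There were 12 fixed FRISCR, 15 live FRISCR, 7 fixed Triton and 11 live Triton cells. The extraction protocol in the labels describes cortical tissue, and the titles carry the codes PLRC on FRISCR and RLT on Triton cells. All 12 embryonic stem cell markers examined, POU5F1, SOX2 and NANOG among them, had at least 5 counts per 1000000 (CPM) in each group. The summed markers reached 2206 CPM in fixed Triton cells, and 6653, 6612 and 5820 CPM in fixed FRISCR, live FRISCR and live Triton cells. Of 8 radial glia markers 2, 2, 4 and 3 were at 0, and of 8 fibroblast markers 4, 4, 5 and 4, in fixed FRISCR, live FRISCR, fixed Triton and live Triton cells. In the same order of groups, 4, 4, 3 and 4 radial glia markers had at least 5 CPM and the list summed to 370, 524, 157 and 492 CPM. Of the fibroblast markers 3 had at least 5 CPM in each group, and the list summed to 568.1, 714, 252 and 670 CPM.

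Total counts ran between 3388417 and 6594043 per cell. A code in the titles splits every group into 2 library sets, here set 1 and set 2. The labels name no separate cultures, so a group is 1 sample and its cells are not replicates of a treatment. No test between groups was possible, no p-value is given, and intervals are 95% intervals that cover the counting error of reads alone. They do not cover the spread between cells or between cultures. The reads carry no molecular identifiers and several can stem from the same molecule, so the intervals can be too narrow even for the counting of molecules. In these data a smaller number of RNA molecules and a smaller share of them turned into cDNA cannot be told apart. A pair of cells stood apart and is named beside the values it touches. Fixed Triton replicate 3 had the highest SSU and LSU levels of its group, and live Triton replicate 4 had an unusual make-up of LSU counts.

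Ribosomal RNA forms the core of both ribosomal subunits and is the most abundant RNA of a dividing cell. RNA polymerase I transcribes it in the nucleolus as one precursor, from which small nucleolar RNPs and processing factors cut and modify the SSU rRNA and most of the LSU rRNA; a short LSU component is made separately by RNA polymerase III. Mature rRNA carries no poly(A) tail, whereas Smart-seq2 primes cDNA with oligo(dT) on such tails. The published FRISCR method also collects polyadenylated RNA on oligo(dT) beads, a step that the labels of these samples do not describe. Human rRNA genes lie in long tandem arrays, and partial copies lie elsewhere in the genome, so reads can match several near-identical rows.

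The rRNA-named rows held 0.00553% of all counts in fixed FRISCR, 0.00517% in live FRISCR, 8.59% in fixed Triton and 1.27% in live Triton cells. Among single cells, the share was lowest at 0.000939%, with a median of 0.00519% and a maximum of 0.0187%, in fixed FRISCR cells. Live FRISCR cells spanned 0.000741% to 0.0129%, with a median of 0.00428%. Fixed Triton cells spanned 6.09% to 11.4%, with a median of 9.00%, and live Triton cells 0.565% to 1.90%, with a median of 1.26%. The 3 ranges of fixed Triton, live Triton and FRISCR cells did not overlap, while those of fixed and live FRISCR cells did. Of all TPM, the deposited values per length, the rows held 0.0204% in fixed FRISCR, 0.0183% in live FRISCR, 19.0% in fixed Triton and 4.21% in live Triton cells.

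Summed SSU rows stood at 40.3 CPM in fixed FRISCR, 42.9 CPM in live FRISCR, 84402 CPM in fixed Triton and 12520 CPM in live Triton cells. Over single cells, SSU levels ran between 3.07 and 152 CPM in fixed FRISCR (median 41.8) and between 4.14 and 122 CPM in live FRISCR (median 33.9). They ran between 60248 and 110493 CPM in fixed Triton (median 88634) and between 5458 and 18555 CPM in live Triton (median 12423). The lowest fixed Triton cell was thus above the highest live Triton cell.

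Summed LSU rows stood at 15.0 CPM in fixed FRISCR, 8.88 CPM in live FRISCR, 1522 CPM in fixed Triton and 188 CPM in live Triton cells. Their cells spanned 0.904 to 34.9 CPM in fixed FRISCR (median 11.0), 2.36 to 29.03 CPM in live FRISCR (median 6.89), 650 to 3312 CPM in fixed Triton (median 1354) and 124 to 398 CPM in live Triton (median 155). Both Triton groups were again above both FRISCR groups, and here fixed FRISCR summed higher than live FRISCR. The counts behind these LSU levels were 824 and 645 in the FRISCR groups, fixed first, and 44357 and 10862 in the Triton groups, fixed first.

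**Figure D1:**
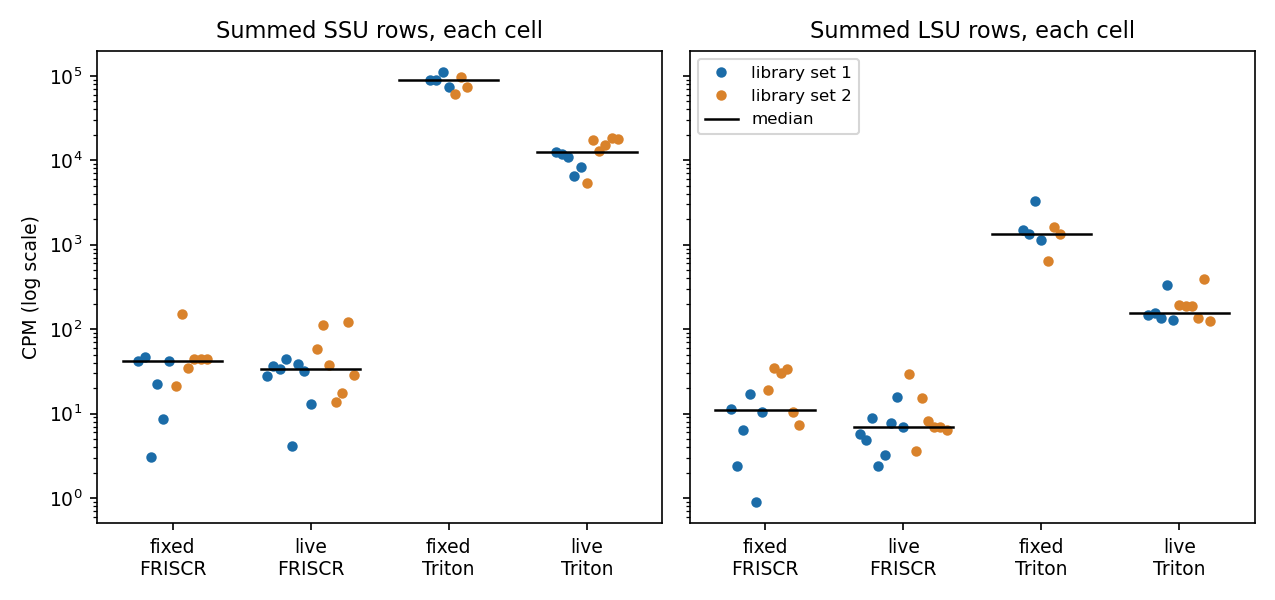
Summed CPM of the 19 SSU rows (left) and the 25 LSU rows (right) in each cell, on a log scale, by group; a point is a cell, its colour the library set, and the line the median of the group. The 27 FRISCR cells lie below every Triton cell in both panels, at no more than 152 CPM for SSU and 34.9 CPM for LSU rows.

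In Triton cells the SSU level was 6.74-fold higher in fixed than in live cells (counting interval 6.72 to 6.76; log2 2.75), and the LSU level was 8.10-fold higher (7.93 to 8.27; log2 3.02). Without fixed Triton replicate 3 the LSU log2 fold was 2.78. Set 1 gave log2 folds of 3.13 for SSU and 3.32 for LSU rows, and set 2 gave 2.43 and 2.65. The sets also differed among live Triton cells, where the SSU median was 10801 CPM in set 1 and 16205 CPM in set 2. Within FRISCR, fixed over live cells had a log2 fold of -0.09 for SSU rows (-0.17 to -0.01) and 0.76 for LSU rows (0.61 to 0.91), with overlapping cells for both. The LSU value was 0.23 in set 1 and 0.98 in set 2, and the SSU value was -0.46 without fixed FRISCR replicate 8, the cell at 152 CPM. The median over cells gave an SSU value of 0.30, so its direction turned with the summary used.

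The difference between the fixation folds, that in Triton minus that in FRISCR, was 2.84 on the log2 scale for SSU rows and 2.26 for LSU rows. It was 3.28 and 2.53 for SSU rows in sets 1 and 2, and 3.09 and 1.67 for LSU rows. With 1 sample a group this difference has no test.

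Between preparations the rows were far lower in FRISCR cells. SSU rows were 2094-fold lower in fixed FRISCR than in fixed Triton cells (2009 to 2185) and 292-fold lower among live cells, FRISCR against Triton (282 to 303). LSU rows were 101-fold lower in fixed FRISCR than in fixed Triton cells (94.5 to 109) and 21.2-fold lower among live cells, FRISCR against Triton (19.5 to 22.9). Neither library set turned any of these directions. The log2 folds of the sets ran between -11.75 and -10.49 for SSU rows in fixed cells and between -7.77 and -5.83 for LSU rows in fixed cells.

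Other measures also stood apart in fixed Triton cells. At 1000000 counts per cell, the median number of genes detected was 5086 in fixed Triton cells, against 8925 in fixed FRISCR, 9066 in live FRISCR and 9616 in live Triton cells. TVAS5, an abundant row that matched no gene symbol of the annotation used, held 0.845% of counts in fixed FRISCR, 0.795% in live FRISCR, 24.5% in fixed Triton and 6.25% in live Triton cells. In set 1, TVAS5 had a difference between fixation folds of 3.14 (log2, Triton minus FRISCR), and in set 2 one of 1.06. Their part in the rRNA values was not tested.

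The ratio of SSU to LSU counts within a cell does not depend on how totals are scaled. It was 2.68 in fixed FRISCR (2.47 to 2.91), 4.83 in live FRISCR (4.43 to 5.26), 55.5 in fixed Triton (54.9 to 56.0) and 66.6 in live Triton cells (65.4 to 67.9). Single cells spanned 0.486 to 19.7 in fixed FRISCR (median 3.84), 1.27 to 30.5 in live FRISCR (median 3.79), 33.4 to 92.7 in fixed Triton (median 59.3) and 19.3 to 143 in live Triton cells (median 76.9). Every fixed FRISCR and live FRISCR cell had a ratio below that of every fixed Triton cell, while the highest ratio of each FRISCR group was above the lowest live Triton ratio. Fixed and live cells overlapped within FRISCR and within Triton. The lowest ratios of the Triton groups came from fixed Triton replicate 3 (33.4) and live Triton replicate 4 (19.3).

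Per length, the ratio of mean SSU TPM to mean LSU TPM was 1.17 in fixed FRISCR, 1.74 in live FRISCR, 20.5 in fixed Triton and 27.7 in live Triton cells. Leaving out c21_SSU, an alternative added after seeing the data, gave SSU to LSU count ratios of 1.04, 1.74, 7.04 and 9.18 in the same order of groups. The order of the groups held in all 3 versions, which use sums or means over cells. Medians over cells turned the order of the FRISCR groups. They were 3.84 in fixed and 3.79 in live FRISCR cells by counts, and 1.66 and 1.43 by TPM.

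**Figure D2:**
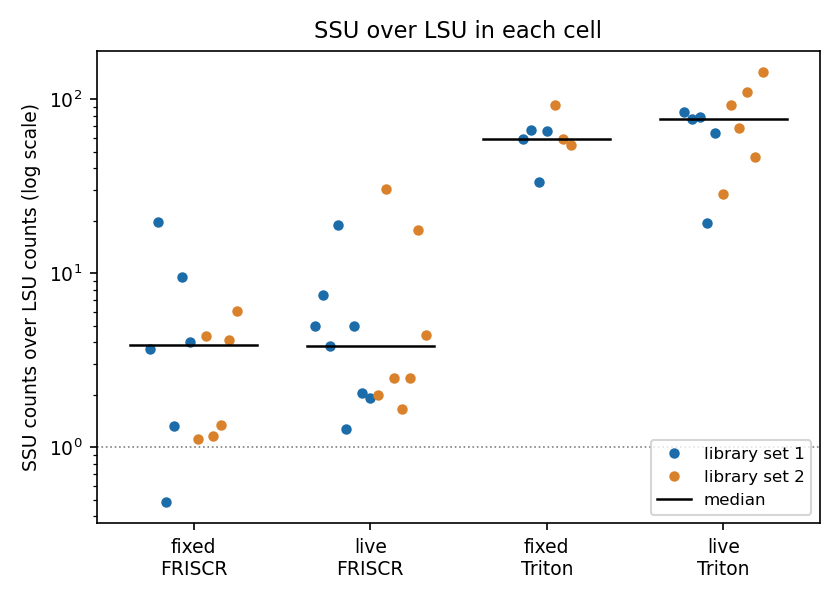
Ratio of SSU counts to LSU counts in each cell, on a log scale, by group; a point is a cell, its colour the library set, the black line the median and the dotted line a ratio of 1. Medians were 3.84, 3.79, 59.3 and 76.9, and the lowest live Triton cell (19.3) lies within the live FRISCR range.

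One row, c21_SSU, took up most of the SSU counts. It held 61.1% of SSU counts in fixed FRISCR, 63.9% in live FRISCR, 87.3% in fixed Triton and 86.2% in live Triton cells. In single cells this share spanned 29.4% to 97.5% in fixed FRISCR and 10.5% to 86.7% in live FRISCR, but 80.8% to 91.5% in fixed Triton and 84.0% to 87.7% in live Triton cells. Its level had a minimum of 0.903, a median of 21.0 and a maximum of 113 CPM in fixed FRISCR cells, and of 0.436, 21.3 and 88.8 CPM in live FRISCR cells. The same values were 51899, 77461 and 89320 CPM in fixed Triton cells and 4674, 10851 and 15820 CPM in live Triton cells. Fixed Triton cells were 6.83-fold higher than live Triton cells, without overlap. Per length, its mean level was 82.9 TPM in fixed FRISCR, 93.8 TPM in live FRISCR, 170902 TPM in fixed Triton and 38312 TPM in live Triton cells. FRISCR cells were 2993-fold lower than Triton cells when fixed and 394-fold lower when live, both without overlap.

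By counts the next SSU row was c16_SSU, with cells between 0 and 18.7 CPM in fixed FRISCR (median 7.05), between 0.436 and 20.7 CPM in live FRISCR (median 7.13), between 5468 and 13474 CPM in fixed Triton (median 5919) and between 506 and 1760 CPM in live Triton (median 1005). The highest fixed Triton value belonged to replicate 3. Its fold was 6.42 for fixed over live Triton, and FRISCR was 967-fold lower than Triton in fixed cells and 134-fold lower in live cells. Next, c2_SSU stood at 6.10 CPM in fixed FRISCR, 5.48 CPM in live FRISCR, 2797 CPM in fixed Triton and 485 CPM in live Triton cells. Together c21_SSU, c16_SSU and c2_SSU held 68.9%, 79.6%, 97.3% and 97.5% of all rRNA-named counts in fixed FRISCR, live FRISCR, fixed Triton and live Triton cells.

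The other SSU rows above the minimum level, a mean of 5 CPM over the 4 groups, were cy_SSU, c7_SSU, c12_SSU and c5_SSU. In fixed Triton cells they had 351, 151, 141 and 132 CPM, and in live Triton cells 61.3, 20.7, 22.5 and 21.7 CPM. All 4 were without overlap between fixed and live Triton cells, and their log2 folds lay between 2.51 and 2.87. In the FRISCR groups none exceeded 1.31 CPM, the value of cy_SSU in fixed cells. The eighth SSU row by level, c14_SSU, was below the minimum, with 1 count in each FRISCR group, 31 counts in fixed Triton and 10 in live Triton cells.

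Among LSU rows c1_LSU had the most counts over all cells. It held 26.8% of LSU counts in fixed FRISCR, 23.9% in live FRISCR, 57.3% in fixed Triton and 58.9% in live Triton cells. Its cells spanned 0.217 to 17.5 CPM in fixed FRISCR (median 3.00), 0.218 to 6.73 CPM in live FRISCR (median 1.45), 464 to 998 CPM in fixed Triton (median 946) and 55.8 to 284 CPM in live Triton (median 105). Fixed Triton cells were 7.88-fold higher than live Triton cells without overlap, and FRISCR was 216-fold lower in fixed and 52.2-fold lower in live cells.

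The second by counts, c17_LSU, ranged between 35.4 and 1111 CPM over fixed Triton cells (median 121) and between 4.20 and 23.6 CPM over live Triton cells (median 8.65). It had 6 counts in 2 of 12 fixed FRISCR cells, with a highest level of 0.930 CPM, and 8 counts in 5 of 15 live FRISCR cells, with a highest level of 0.545 CPM. The fixed over live Triton fold of c17_LSU was 20.4 (log2 4.35) with all cells, and its log2 fold was 3.44 without fixed Triton replicate 3. Per length, c1_LSU held 41.1% and c17_LSU 39.4% of LSU TPM in fixed Triton cells, and 53.1% and 18.0% in live Triton cells.

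Fixed Triton replicate 3 held 3 LSU rows far above the other 6 fixed Triton cells. It had 1111 CPM of c17_LSU where the next cell had 284, 520 CPM of c5_LSU where the next had 89.7, and 465 CPM of c11_LSU where the next had 127. The 3 rows made up 63.3% of its LSU counts, and between 9.14% and 30.7% in the other fixed Triton cells, while c1_LSU made up 24.1% of the LSU counts of replicate 3. In live Triton cells the 3 rows made up between 7.53% and 38.5%. Without this cell the fixed Triton levels were 130 CPM for c17_LSU, 55.0 CPM for c5_LSU and 52.8 CPM for c11_LSU, against 244, 109 and 101 CPM with it. The summed LSU level was 1287 CPM without it and 1522 CPM with it. It also had 6637 genes detected at equal depth, the highest number among fixed Triton cells.

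**Figure D3:**
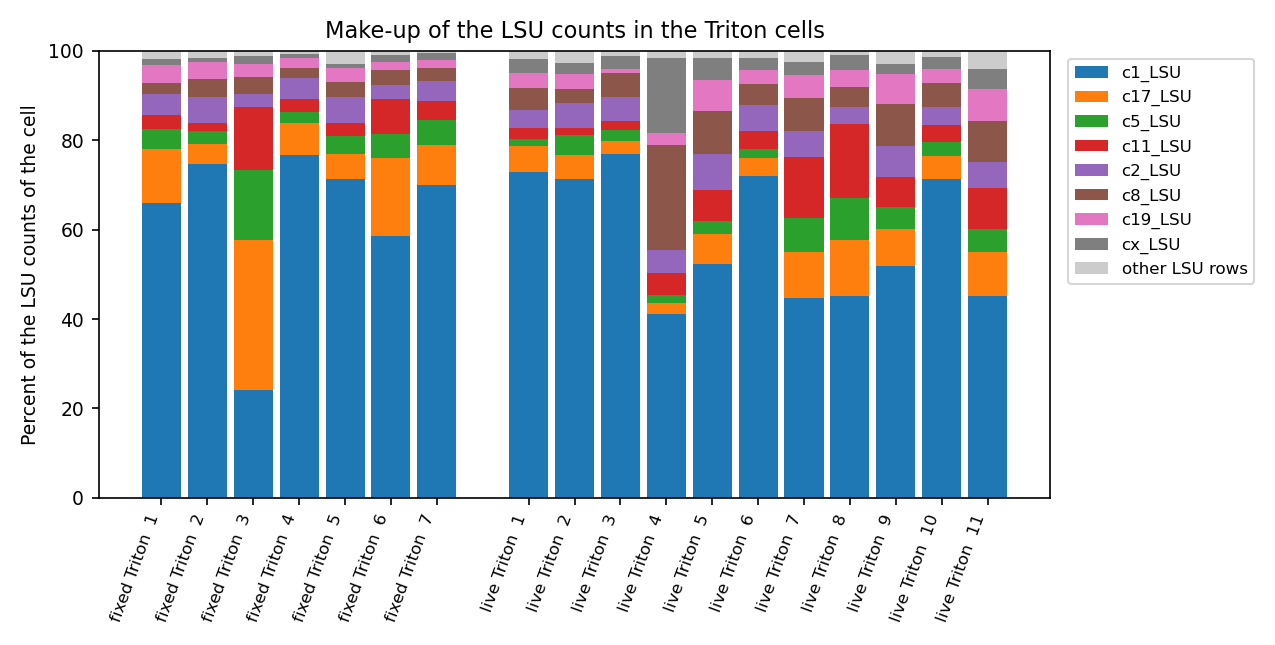
Percent of the LSU counts of each Triton cell held by each of the 8 LSU rows above the minimum level and by the other 17 LSU rows together; a bar is a cell. Fixed Triton replicate 3 has 63.3% in c17_LSU, c5_LSU and c11_LSU, and live Triton replicate 4 has 40.2% in c8_LSU and cx_LSU.

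A further pair of LSU rows, c8_LSU and cx_LSU, had the smallest folds between preparations among the 15 rows above the minimum. Per length, c8_LSU was the highest LSU row of the FRISCR groups, with 34.2% of LSU TPM in fixed and 28.3% in live FRISCR cells, where c1_LSU had 28.4% and 21.2%. It stood at 4.95 CPM, or 32.9% of LSU counts, in fixed FRISCR cells and at 2.46 CPM, or 27.8%, in live FRISCR cells. It held 3.24% of LSU counts in fixed Triton cells, at 49.3 CPM, and 8.41% in live Triton cells, at 15.8 CPM. cx_LSU held 14.1%, 15.2%, 1.33% and 4.92% of LSU counts in fixed FRISCR, live FRISCR, fixed Triton and live Triton cells.

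The level of c8_LSU was 9.97-fold lower in fixed FRISCR than in fixed Triton cells (8.75 to 11.4), without overlap. Among live cells it was 6.41-fold lower in FRISCR than in Triton (5.46 to 7.57), with overlap. For cx_LSU these folds were 9.56 and 6.84, the second again with overlap. Live Triton replicate 4 held 79.3 CPM of c8_LSU and 55.4 CPM of cx_LSU, and the pair made up 40.2% of its LSU counts, against 5.81% to 14.7% in the other 10 live Triton cells. Without that cell, cx_LSU stood at 5.51 CPM in live Triton cells, against 9.24 CPM with it, and the live FRISCR over live Triton log2 folds were -2.12 for c8_LSU and -2.03 for cx_LSU, against -2.68 and -2.77 with it.

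The last of the named LSU rows were c2_LSU and c19_LSU. c2_LSU stood at 1.64 CPM in fixed FRISCR, 0.454 CPM in live FRISCR, 63.9 CPM in fixed Triton and 9.82 CPM in live Triton cells. c19_LSU stood at 0.803 CPM in fixed FRISCR, 0.220 CPM in live FRISCR, 43.4 CPM in fixed Triton and 7.33 CPM in live Triton cells. Without fixed FRISCR replicate 9, which held 19 of the 44 c19_LSU counts of its group, the fixed FRISCR level was 0.497 CPM.

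**Figure D4:**
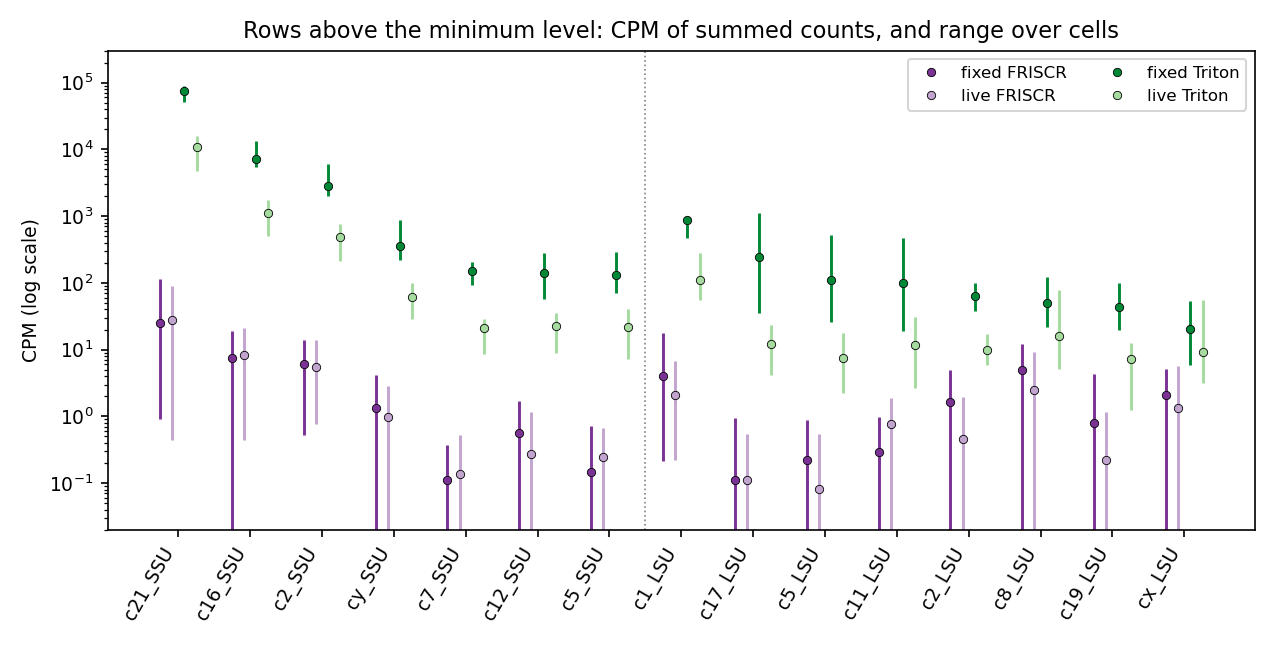
CPM of summed counts of the 15 rows above the minimum level in each group (points) and the range over cells (lines), on a log scale, with SSU rows left of the dotted line and LSU rows right of it; lines that reach the lower edge go down to 0. FRISCR groups lie below Triton groups for each of the 15 rows, with c8_LSU and cx_LSU closest.

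Of the 44 rows, 8 had no count in any cell (7 SSU and 1 LSU). A further 21 rows (5 SSU and 16 LSU) had counts but did not reach the minimum, and 15 (7 SSU and 8 LSU) did. Of those 15, only c21_SSU, c16_SSU and c2_SSU reached 5 CPM in a FRISCR group, and all 15 reached it in both Triton groups. A row that passed through its Triton levels had to be lower in FRISCR, so the counts between preparations describe these 15 rows and support nothing about the 44. The fixed Triton level also entered the mean behind the minimum, and it was the highest group level in each of the 15 rows. Rows high in fixed Triton cells passed more easily, so the counts of fixed over live Triton cells likewise describe these 15 rows only.

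In fixed over live Triton cells, 15 of the 15 rows were more than 2-fold higher, against 11% of the 10210 rows of the table above the same minimum, and 0 were lower, against 61.3%. Without fixed Triton replicate 3, cx_LSU had a log2 fold of 0.77 and was within 2-fold. In 12 rows, 7 SSU and 5 LSU, every fixed cell exceeded every live cell, against 0.705% of rows of the table. The exceptions were c11_LSU, c8_LSU and cx_LSU. In 0 rows was every fixed cell below every live cell, against 7.45%. The median log2 fold was 2.65 over the 7 SSU rows and 2.84 over the 8 LSU rows, and -1.74 over all rows of the table. The rows ranged from 1.13 for cx_LSU to 4.35 for c17_LSU, and the SSU rows within that from 2.51 for cy_SSU to 2.87 for c7_SSU. With no minimum, 26 rows were more than 2-fold higher and 0 were lower. The share over the table is not given without a minimum, and the 11% is not its counterpart.

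In fixed over live FRISCR cells, 5 of the 15 rows were more than 2-fold higher, against 5.67% of rows of the table, and 1 was lower, against 9.95%. The higher ones were c12_SSU (31 and 20 counts, fixed and live), c5_LSU (12 and 6 counts), c2_LSU (90 and 33 counts), c8_LSU (271 and 179 counts) and c19_LSU (44 and 16 counts). The lower one was c11_LSU, with 16 counts in fixed and 55 counts in live cells. The cells overlapped between groups for all 15 rows, and 0% of the rows above the minimum were without overlap. Of the 15 rows, only c21_SSU, c16_SSU and c2_SSU reached 5 CPM in a FRISCR group. The shares over the table were not matched for level in FRISCR cells. Of the 5 higher rows, the counting interval of c5_LSU included 0 on the log2 scale (-0.12 to 3.11). The lower row had log2 folds of -3.37 in set 1 and 0.45 in set 2, so its direction turned between sets. The median log2 fold was -0.15 over the 7 SSU rows and 0.97 over the 8 LSU rows, and -0.03 over all rows of the table. The count of higher rows was 3 without fixed FRISCR replicate 4, and that of lower rows was 2 without fixed FRISCR replicate 8. The fixed FRISCR level of c17_LSU was 0.0202 CPM without replicate 12, against 0.110 CPM with it, and the live FRISCR level of c5_LSU was 0.0447 CPM without replicate 4, against 0.0826 CPM with it.

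In fixed FRISCR over fixed Triton cells, 15 of the 15 rows were more than 2-fold lower, against 9.66% of rows of the table, and 0 were higher, against 62.8%. Every FRISCR cell was below every Triton cell in 15 rows, against 0.451%, and above in 0, against 3.57%. With live FRISCR set over live Triton cells, 15 were lower, against 4.86%, and 0 higher, against 9.72%. In 13 rows every FRISCR cell was below every Triton cell, against 0.225%, the exceptions being c8_LSU and cx_LSU. Both comparisons share their cells with the fixation comparisons. Their log2 folds ran between -11.55 for c21_SSU and -3.26 for cx_LSU in fixed cells, and between -8.62 for c21_SSU and -2.68 for c8_LSU in live cells. The median was -9.82 over SSU and -6.76 over LSU rows in fixed cells and -6.47 over SSU and -4.75 over LSU rows in live cells, where all rows of the table had 1.80 in fixed and 0.11 in live cells.

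**Figure D5:**
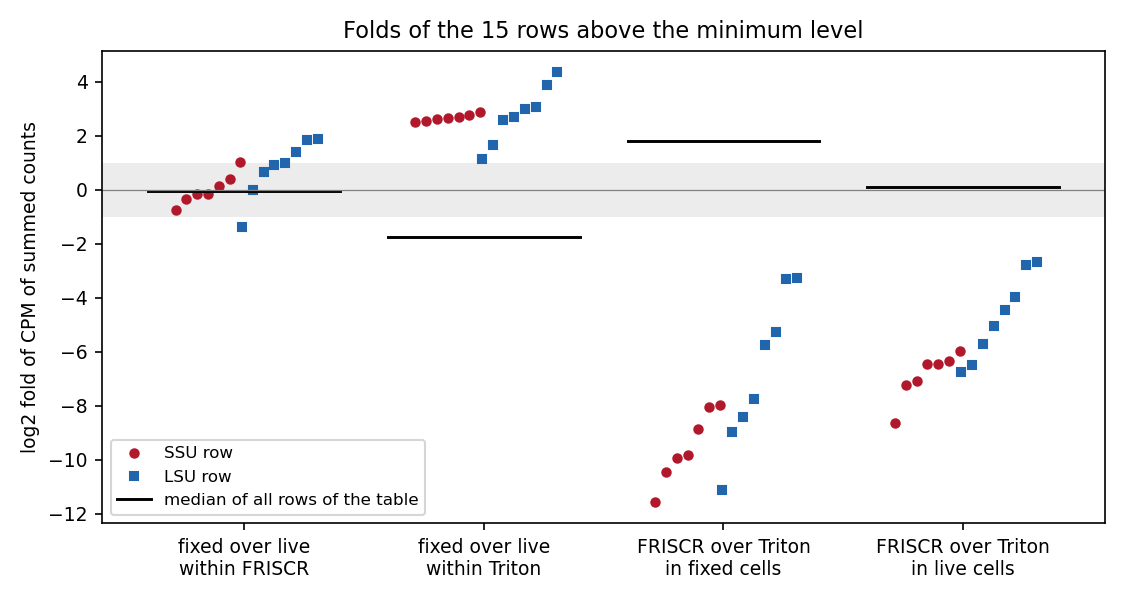
Log2 folds of CPM of the 15 rows above the minimum level in the 4 comparisons, SSU rows as circles and LSU rows as squares, with the median of the 10210 rows of the table above the minimum as a line and the range within 2-fold shaded. In fixed over live Triton with all cells, SSU rows lie between 2.51 and 2.87 and LSU rows between 1.13 and 4.35. In library set 2 alone, SSU rows lay between 1.78 and 2.86 and LSU rows between 1.56 and 3.32.

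The number of rRNA-named rows with a count was 8 to 16 per fixed FRISCR cell (median 13.5), 9 to 20 per live FRISCR cell (median 13), 23 to 27 per fixed Triton cell (median 26) and 18 to 25 per live Triton cell (median 21). At 1000000 counts per cell the medians were 9, 7, 21 and 18 in the same order. Only c21_SSU, c2_SSU and c1_LSU had a count in all 45 cells. A count was found in Triton and in no FRISCR cell for 9 rows, 2 SSU and 7 LSU. The reverse held for c20_LSU alone, with 1 count. c6_LSU, one of the 9, had 112 counts in fixed Triton and 29 counts in live Triton cells, and 0 counts in 54790660 of fixed FRISCR and 72622950 of live FRISCR cells.

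The length that the deposited counts and TPM imply for a row differed between the rows. It was 1846 bases for c16_SSU, 1832 for c2_SSU and 1832 for cy_SSU, with a coefficient of variation under 1% over cells. The RefSeq gene table lists 1869 bases for RNA18SN1, a human SSU rRNA gene. For c21_SSU the implied length was 488 bases, and for the other SSU rows in at least 5 cells it lay between 50 and 350. No LSU row in at least 5 cells had a median over 739 bases, whereas the table lists 5054 to 5077 bases for the RNA28SN genes of the main LSU rRNA. The median of 739 belonged to c2_LSU, whose implied length ran from 71 to 2148 bases over cells. Among LSU rows in at least 5 cells, the coefficient of variation ran from 5.06% for c9_LSU to 78.5% for c7_LSU. These lengths were calibrated in each cell on protein-coding genes of 1 transcript, of which a median of 70.8% came within 10% of the annotated length. The calibration genes had 1000 to 6000 bases, so shorter implied lengths lie outside the calibrated range. No coordinates or sequences of the rows were available here, so the part of the rRNA each row covers is not given.

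Estimated counts can be other than whole where a read is divided between rows. The quantifier is not given, and whether this made the values here was not tested. Of nonzero values, 69.9% were not whole for SSU and 55.6% for LSU rows, against 40.3% over the whole table (tolerance 1e-09). Among values of at least 10, SSU and LSU rows were closer, at 82.2% and 76.2%, against 38.0% over the whole table. Of all nonzero values, the share was 97.7% for c16_SSU, 95.6% for c2_SSU and 92.9% for cy_SSU, the 3 rows with the longest implied SSU lengths. It was 57.8% for c21_SSU, 10.0% for c12_SSU and 7.41% for c5_LSU. Levels of single rows with such values are uncertain, as reads of near-identical copies could be split between them. The ratio of c16_SSU to c2_SSU counts had a median of 1.17 over fixed FRISCR, 1.51 over live FRISCR, 2.67 over fixed Triton and 2.28 over live Triton cells. It spanned 2.23 to 2.73 over fixed Triton and 2.13 to 2.42 over live Triton cells, and 0 to 2.40 over fixed FRISCR and 0.200 to 2.50 over live FRISCR cells.

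SSU and LSU levels of single cells were related unevenly. Over the 7 fixed Triton cells Pearson's r of log2 CPM was 0.93 and Spearman's rho 0.89, and r was 0.81 without the 2 cells farthest from the SSU median. Over the 11 live Triton cells r was -0.09 and rho -0.10, and r was 0.50 without the 2 farthest. Over the 12 fixed FRISCR cells r was 0.48 and rho 0.31, with r at 0.13 without the 2 farthest. Over the 15 live FRISCR cells r was 0.16 and rho 0.09, with r at -0.07 without the 2 farthest. These describe cells of 1 sample, whose SSU and LSU levels share a library and a total. The coefficient of variation over cells of the SSU level was 89.5% in fixed FRISCR, 81.3% in live FRISCR, 19.7% in fixed Triton and 36.1% in live Triton cells. For LSU levels it was 77.1%, 76.9%, 53.6% and 46.6%.

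Of 8529 rows outside the family that averaged 10 CPM or more over groups, those most like the summed SSU level over the 11 live Triton cells were RPL30 (Spearman's rho 0.93), a protein of the large ribosomal subunit, ARID2 (0.90), a subunit of a chromatin remodelling complex, CAPN1 (0.90), a calcium-dependent protease, FASN (0.89), the fatty acid synthase, and POFUT1 (0.89), an enzyme that adds fucose to proteins. For the summed LSU level they were C6orf225 (0.93), TMEM203 (0.90), LMO4 (0.90), a LIM-domain protein, PPP5C (0.87), a protein phosphatase, and HEPH (0.86), a ferroxidase. The 2 lists share no gene. They are the highest of many values over 11 cells of 1 sample and describe these cells.

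The genes whose products make and process rRNA were described from lists. In fixed over live Triton cells, 11% of the rows of the table above the minimum were more than 2-fold higher and 61.3% lower. Under median-of-ratios scaling, 2729 of these 10210 rows were higher and 4536 lower, with a median log2 fold of -0.55. Of 20 RNA polymerase I subunits and factors, 4 were more than 2-fold higher and 10 more than 2-fold lower in fixed over live Triton cells, with a median log2 fold of -1.12 (0.08 under median-of-ratios scaling, where 7 were higher and 6 lower) against -1.74 over all rows. POLR1B, the second largest subunit of the enzyme, had 0.103 CPM in fixed Triton and 111 CPM in live Triton cells. POLR1D, a small subunit, had 220 CPM in fixed Triton and 77.7 CPM in live Triton cells. POLR2E, a subunit shared with the other polymerases, had 328 CPM in fixed Triton and 298 CPM in live Triton cells. The shared small subunits POLR2F and POLR2L had log2 folds of 1.33 and 1.38.

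For the next 2 lists the shares over the table in fixed over live Triton cells were again 11% higher and 61.3% lower. Under median-of-ratios scaling they were 2729 higher and 4536 lower of 10210 rows, with a median of -0.55. Of 30 genes of rRNA modification and cleavage, 1 was higher and 21 were lower in fixed over live Triton cells, with a median of -1.94 (-0.74 under median-of-ratios scaling, with 6 higher and 13 lower). The higher one was NOP10, of the pseudouridylating small nucleolar RNPs, with 578 CPM in fixed Triton and 181 CPM in live Triton cells. NCL, nucleolin, had 223 CPM in fixed Triton and 1212 CPM in live Triton cells, and DCAF13, a processome protein, stood at 47.6 CPM in fixed Triton against 322 CPM in live Triton cells. RRP9, a protein of the U3 RNP, stood at 0.103 CPM in fixed Triton against 95.4 CPM in live Triton cells. Of 24 measured large-subunit assembly factors, 0 were higher and 19 lower, with a median of -2.32 (-1.12 under median-of-ratios scaling, with 2 higher and 13 lower). NPM1, nucleophosmin, had 1020 CPM in fixed Triton and 2241 CPM in live Triton cells, a log2 fold of -1.14 that turned to 0.06 under that scaling. GNL3, nucleostemin, stood at 99.0 CPM in fixed Triton against 327 CPM in live Triton cells, the GTPase GNL2 at 3.84 CPM against 260 CPM, and the helicase DDX18 stood at 145 CPM in fixed Triton and 111 CPM in live Triton cells.

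In the comparison of live FRISCR with live Triton cells, 3 polymerase I genes were higher and 1 lower, and none of the 30 modification or 24 assembly genes passed 2-fold, against 9.72% of rows of the table higher and 4.86% lower, with list medians of -0.04, -0.15 and -0.08. In fixed FRISCR over fixed Triton cells 10 polymerase I genes were higher and 4 lower, with a median of 1.18 that turned to -0.08 under median-of-ratios scaling, 21 modification genes were higher and 1 lower, and 18 assembly genes were higher and 0 lower. Over the table these shares were 62.8% higher and 9.66% lower, with a median of 1.805, or 0.55 under median-of-ratios scaling. In fixed over live FRISCR cells 0 polymerase I genes were higher and 2 lower, 0 modification genes higher and 1 lower, and 1 assembly gene higher and 0 lower, against 5.67% higher and 9.95% lower over the table.

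Other RNA without a poly(A) tail was set beside the rows. Of 22 listed genes, 17 were in the table and 7 above the minimum. These 7 were more than 2-fold higher in fixed than in live Triton cells, against 11% of rows of the table. Their median log2 fold was 1.88. Under median-of-ratios scaling 7 were again higher, against 2729 of 10210 rows of the table. The fixed Triton level entered the mean behind the minimum. Genes high there passed more easily, so the count describes these 7 genes only. HIST1H4C, a replication-dependent histone gene, had 5.51 CPM in fixed FRISCR, 4.59 CPM in live FRISCR, 1657 CPM in fixed Triton and 423 CPM in live Triton cells. The linker histone gene HIST1H1E had 142 CPM in fixed Triton and 30.3 CPM in live Triton cells, and HIST1H1D stood at 81.6 CPM in fixed Triton against 34.4 CPM in live Triton cells. In fixed and live FRISCR cells HIST1H1E had 0 and 0.372 CPM, and HIST1H1D had 0 CPM in each.

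The mitochondrial rRNA-like genes, nuclear copies related to mitochondrial LSU rRNA, had 10 of 12 listed in the table and 6 above the minimum. All 6 were more than 2-fold higher in fixed over live Triton cells, against 11% of rows of the table. Their median log2 fold was 1.98. Under median-of-ratios scaling 6 were again higher, against 2729 of 10210 rows of the table. The fixed Triton level entered the minimum here too, so the count describes these 6 genes only. MTRNR2L2 had 324 CPM in fixed FRISCR, 307 CPM in live FRISCR, 8598 CPM in fixed Triton and 2158 CPM in live Triton cells, and MTRNR2L8 and MTRNR2L1 had log2 folds of 1.49 and 1.97 for fixed over live Triton. Among the 5 abundant rows without a gene symbol, 3 were more than 2-fold higher in fixed over live Triton, against the same 11%. BC018860 was not among them, with 16346 CPM in fixed Triton and 15246 CPM in live Triton cells, while OK/SW-cl.16 had 37754 CPM in fixed Triton and 8896 CPM in live Triton cells. This depended on the scaling. Under median-of-ratios scaling 5 of the 5 abundant rows were higher, against 2729 of 10210 rows of the table, and BC018860 had a log2 fold of 1.30.

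Another 24 rows with the same kind of prefix carry the letters 5S, the usual name of the separately made LSU component, and 640 carry tRNA in their names. These comparison rows were chosen after seeing the row names. The 5S rows summed to 23 counts in fixed FRISCR, 29 in live FRISCR, 7 in fixed Triton and 36 in live Triton cells, or 0.420, 0.399, 0.240 and 0.623 CPM, with overlapping cells in each comparison. The tRNA rows stood at 6.94 CPM in fixed FRISCR, 5.54 CPM in live FRISCR, 28.8 CPM in fixed Triton and 4.83 CPM in live Triton cells. Fixed Triton cells exceeded live Triton cells 5.97-fold (5.21 to 6.86) without overlap, whereas live FRISCR and live Triton cells differed by a log2 fold of 0.20 (-0.03 to 0.42) and overlapped.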

How the data were processed

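Libraries of 45 single cells were compared. The authors made 1 table of estimated counts and 1 of TPM from the reads and deposited both, with a value per row and cell. The genome build is GRCh37 (hg19) per the submitters' processing notes, with aligner, quantifier and annotation not given in the sources used here. Estimated counts were rounded to whole numbers and summed over the cells of a group, divided by the summed total (CPM), and compared as ratios with exact binomial intervals, with 3 counts as the floor where a group summed to 0 and no fold where both groups had 3 counts or fewer or where that floor would have turned the direction. Rows with a mean of at least 5 CPM over the 4 groups were compared with the table at a 2-fold threshold. Genes detected were counted after thinning to 1000000 counts. Alternatives used TMM factors from edgeR 4.0.16, median-of-ratios factors from DESeq2 1.42.0, other totals, means, minimums and thresholds, TPM, library sets, and each cell left out.

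Total counts had medians of 4452107 in fixed FRISCR, 4786207 in live FRISCR, 4301153 in fixed Triton and 4994021 in live Triton cells. Named with values were the 8 SSU and 8 LSU rows of highest mean CPM, the 5 genes most like each sum, and, per gene list, the 3 members of highest level plus those with the highest and lowest fixed over live Triton fold. The members, lists and tests were chosen with earlier results of these data known. The ratio procedure was tested on simulated data. Calculations used Python 3.11.15, numpy 2.4.6, pandas 2.3.3, scipy 1.17.1 and R 4.3.3.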

Additional observations from a re-analysis of the deposited data

Results flagged for a closer look

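Over the 7 fixed Triton cells, 20 measures were examined for a cell far from the others, and 11 had one. How many chance would give was not tested. In 10 of the 11 it was replicate 3, the highest cell each time. It had 3312 CPM of summed LSU rows, where the next cell had 1633 CPM. Among SSU rows it had 13474 CPM of c16_SSU (next 7553), 6048 CPM of c2_SSU (next 2796), 882 CPM of cy_SSU (next 338) and 285 CPM of c5_SSU (next 142). Among LSU rows it had 1111 CPM of c17_LSU (next 284), 520 CPM of c5_LSU (next 89.7), 465 CPM of c11_LSU (next 127), 122 CPM of c8_LSU (next 54.3) and 54.0 CPM of cx_LSU (next 26.0). Its c21_SSU level and its total rRNA share were not apart. The remaining cell was replicate 5, the lowest, with 464 CPM of c1_LSU where the next lowest had 798 CPM. These measures share cells and totals and are not independent. The other groups hold more than 10 cells and were not examined in this way.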

How the results depend on the processing

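Alternative values of folds, ratios and rows with a count per cell were said to stay where they changed by less than the spread over cells. Numbers of rows beyond a fold were said to stay where they changed by at most 1.5-fold. Of 290 alternative values of the group levels, ratios and counts, 251 stayed and 39 did not. Of 565 values of single rows, 497 stayed, 67 moved and 1, of a row beyond 2-fold, turned direction. That one was c11_LSU in fixed over live FRISCR, with a log2 fold of 0.45 in library set 2. Among folds within 2-fold, 11 of 79 values of single rows and 6 of 32 of group levels also changed sign, every one in fixed over live FRISCR. TMM and median-of-ratios factors moved the median of all rows by 1.02 and 1.198 on the log2 scale in fixed over live Triton, where they gave 3.77 and 3.96 for all rRNA-named rows, 3.77 and 3.95 for SSU rows, and 4.04 and 4.22 for LSU rows. In fixed FRISCR over fixed Triton they moved it by -1.09 and -1.26, and median-of-ratios factors gave -11.86 for all rRNA-named rows. Mean TPM lowered the log2 folds of fixed over live Triton, to 2.17 for all rRNA-named rows, 2.15 for SSU and 2.59 for LSU rows. Without c21_SSU, added after seeing the data, fixed FRISCR over fixed Triton was -8.64 for all rows and -9.42 for SSU rows, and live FRISCR over live Triton -6.30 and -6.80. The log2 SSU to LSU ratio by mean TPM was 0.80 in live FRISCR, 4.36 in fixed Triton and 4.79 in live Triton cells, and without c21_SSU 0.80, 2.82 and 3.20. The cause of none of these was tested.

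In fixed over live FRISCR, rows more than 2-fold higher numbered 2 at a minimum of 20 CPM, 0 past 4-fold, 2 in set 1, and 3 to 6 with a cell left out. Lower rows numbered 2 at a minimum of 1 CPM, 4 with none, 2 past 1.5-fold, 0 past 4-fold, 2 in set 1, 0 in set 2, and 1 to 2 with a cell left out. With no minimum, 26 rows were higher in fixed over live Triton, 28 lower in fixed FRISCR over fixed Triton, and 1 higher in live FRISCR over live Triton, c18_LSU, named after its values were seen, with 16 counts in live FRISCR and 4 counts in live Triton cells. Shares over the table are not given for these alternative settings, so their numbers of rows stand without a comparison. Median rows with a count were 9, 7, 21 and 18 at equal depth and 7, 6, 20 and 16 at 5 counts or more, in fixed FRISCR, live FRISCR, fixed Triton and live Triton cells. No paired analysis was possible because the labels give no replicate numbers shared between groups and no test was made. Low counts in FRISCR cells limit folds of single rows there.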
